A study of Mus musculus with 8 samples.

Results

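The transcripts of 10 enzymes that handle the sulfur amino acids methionine and cysteine were followed in adult mouse testis: Cbs, Cth, Mpst, Ahcy, Mat2a, Mtr, Cdo1, Suox, Gclc and Gclm. They were taken by gene symbol from a table of 56748 genes, and all 10 were among the 21952 genes that passed the filter on low counts. The set was chosen by the counts of Cbs, which were strongly lower in the knockout libraries of this table, so the difference in Cbs is given as a description with no test. The other 9 were named for their place in the same chemistry, with earlier results of these data known. RNA sequencing compared Ssty2 knockout testis, labelled Ssty2-/-, with wild-type testis, in 4 libraries each. Strain, exact age, the extent of the deletion and whether each library is 1 animal are not stated in the labels. Ssty2 is a gene of the Y chromosome, which carries many copies of it, and the title of the series links deletion of these repeats to an altered sex ratio. Totals ran from 18036708 to 22639737 counts in knockout and from 18763650 to 24415587 in wild type, and Ssty2 itself had 0 counts in every knockout library, against 56, 78, 83 and 45 in wild type.

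Cells turn methionine into S-adenosylmethionine, the donor of most methyl groups, and each methyl transfer leaves S-adenosylhomocysteine, which is split to homocysteine. Homocysteine is either given a methyl group again to form methionine or passed through transsulfuration to cysteine. Cysteine is then built into protein or glutathione, oxidised to taurine and sulfate, or broken down with release of hydrogen sulfide. Glutathione is the main small thiol antioxidant of cells, and in the testis germ cells also depend on methyl donors for the marking of DNA and histones. Knockout of Cbs in mice is known for high blood homocysteine and liver damage.

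The promoters of 3 members are shown, for the gene that the set was built around (Cbs), for the member with the most transcript per length (Mat2a) and for the single member whose level was not called different (Suox). Each window is from RefSeq on build GRCm38.p6, runs from 250 bases before the start of the gene to 50 after it, and is written 5′ to 3′ on the gene's own strand, which is the minus strand in all cases. Capitals mark matches on either strand to any of 4 common promoter elements. These are the GC box, whose letters are GGGCGG, and the CCAAT box, which is spelled by its name. The E-box was searched as CACGTG. For the TATA box the letters were TATAAA. Within the Mat2a window, and within that of Suox, some GC boxes overlap each other.
Cbs, chr17:31637156-31637455: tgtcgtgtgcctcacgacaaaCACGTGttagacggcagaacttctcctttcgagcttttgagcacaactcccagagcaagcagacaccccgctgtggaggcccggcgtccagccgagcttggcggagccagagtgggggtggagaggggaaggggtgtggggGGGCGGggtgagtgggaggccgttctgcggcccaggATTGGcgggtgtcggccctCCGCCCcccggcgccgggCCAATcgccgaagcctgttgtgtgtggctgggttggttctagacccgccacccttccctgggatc
Mat2a, chr6:72439507-72439806: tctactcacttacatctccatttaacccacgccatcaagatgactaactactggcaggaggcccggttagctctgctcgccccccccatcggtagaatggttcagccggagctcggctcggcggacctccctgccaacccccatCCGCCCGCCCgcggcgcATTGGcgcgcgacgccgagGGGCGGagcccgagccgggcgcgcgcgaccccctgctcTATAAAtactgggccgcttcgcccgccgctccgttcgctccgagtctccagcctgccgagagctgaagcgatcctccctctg
Suox, chr10:128673869-128674168: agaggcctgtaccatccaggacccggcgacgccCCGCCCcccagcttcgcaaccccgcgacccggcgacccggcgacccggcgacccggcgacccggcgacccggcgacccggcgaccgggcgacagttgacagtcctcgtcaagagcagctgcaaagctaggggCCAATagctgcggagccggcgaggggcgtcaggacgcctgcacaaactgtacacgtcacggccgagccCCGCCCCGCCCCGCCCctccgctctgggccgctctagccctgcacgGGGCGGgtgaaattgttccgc
The Cbs window is 66.7% G and C with 22 CpG pairs, that of Mat2a 67.0% with 34, and that of Suox 73.3% with 40. Windows were matched for 7 of the 10 members. With Mpst, which has 3 windows, counted once at their median, the median of the 7 members was 66.7% G and C with 24 CpG pairs, against 52.7% and 7 over 32851 promoter windows of all genes. A GC box stood in 6 of the 7, against 35.7% of all promoters, and a CCAAT box in 6 of the 7, against 37.4%. The E-box was matched in Cbs and in no other member window (7.15% of all promoters), and the TATA box in Mat2a and no other (13.6%). The core of the antioxidant response element, TGACNNNGC, was matched in Gclm and in a single window of the 3 of Mpst (12.4% of all promoters, counted by window). The C/EBP-ATF response element, TGATGNAA, was matched in 0 of the 7 and in 3.97% of all promoters. These matches describe letters in a short window and nothing about binding. Cth, Cdo1 and Gclc have no window here.

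Cbs (ENSMUSG00000024039, chromosome 17) encodes cystathionine beta-synthase, which joins homocysteine to serine and so commits it to transsulfuration. It had 10, 17, 20 and 9 counts in the knockout libraries, against 82, 55, 68 and 82 in wild type. Relative to library size, as CPM with TMM scaling (a trimmed mean of the libraries' log ratios), these were 0.537, 0.798, 0.947 and 0.524 CPM in knockout, against 4.22, 2.41, 2.65 and 3.94 CPM in wild type. The groups lay well apart, the highest knockout library under the lowest wild-type one, although the level was low throughout. The means were 0.701 ± 0.207 CPM in knockout and 3.30 ± 0.910 CPM in wild type (SD, n = 4 each), so that knockout held 21.2% of the wild-type level. The fitted log2 fold change of knockout over wild type was -2.20, with a standard error (SE) of 0.262 and a 95% interval from -2.75 to -1.64, and no test is given because the set was chosen for it. The RNA is from whole testis, so fewer cells of a type and less transcript per cell cannot be told apart, here and for every gene that follows.

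Around this gene the enzymes were lower in knockout with 1 exception. In edgeR's quasi-likelihood test, with Benjamini-Hochberg adjustment across the whole table and calls made under 0.05, 9 of the 10 were lower in knockout and 0 higher. At an unadjusted p under 0.05, 9 were lower and 0 higher, and DESeq2 gave the same counts. Of all tested genes 53.5% were called, 27.4% lower and 26.2% higher. Since Cbs chose the set, and the others were named with results known, nothing is read from the members' count. The groups did not overlap for 8 of the 10 members, all with knockout lower, against 24.0% of all genes with every knockout library below every wild-type one. The median log2 fold change was -0.45 over the members and -0.01 over all tested genes. Cbs, which chose the set, is in the 8 and in the median of the members, so neither is read as a result.

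**Figure D1:**
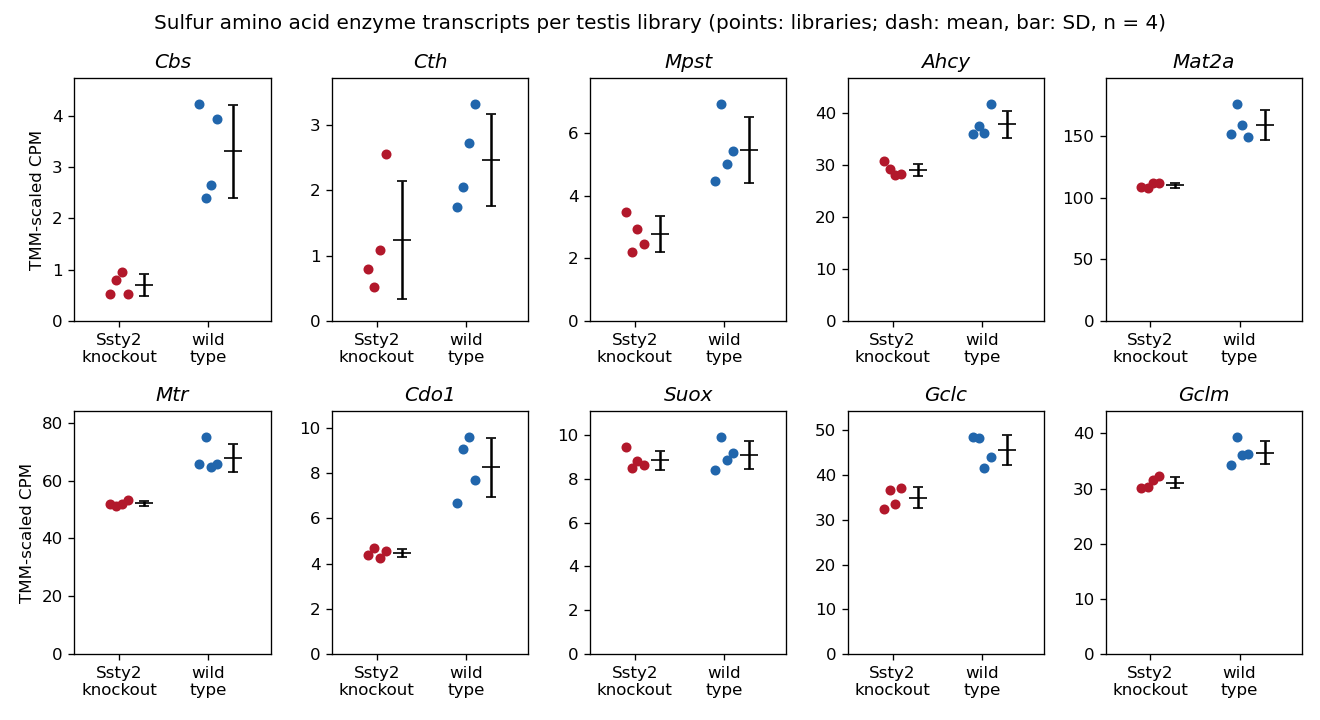
Level of each of the 10 enzymes in every library, in CPM scaled by TMM on linear axes that start at 0, with the 4 Ssty2 knockout libraries left of the 4 wild-type libraries; points are libraries, and bars give the mean and SD. The points of the groups overlap for Cth and Suox and stand apart for the other 8.

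Cth encodes cystathionine gamma-lyase, which splits cystathionine to release cysteine and, like Cbs, can form hydrogen sulfide. Its level was low, with 15, 11, 23 and 44 counts in the knockout libraries, against 34, 47, 70 and 69 in wild type. This was 0.805, 0.516, 1.09 and 2.56 CPM in knockout and 1.75, 2.06, 2.73 and 3.32 CPM in wild type. Knockout replicate 4 stood above 2 of the wild-type libraries, and the spread within knockout, relative to its mean, was the widest of any member. The means were 1.24 ± 0.909 CPM in knockout and 2.46 ± 0.701 CPM in wild type (SD, n = 4 each), a log2 fold change of -1.03 (SE 0.352, edgeR adjusted p = 0.0216). The call rests on single libraries: without knockout replicate 2 the change was -0.76 (edgeR adjusted p = 0.0735) and without wild-type replicate 4 it was -0.86 (edgeR adjusted p = 0.0718), while without knockout replicate 4 it was -1.61. Over the 13 alternatives tried, the adjusted p for Cth ran from 0.000104 to 0.0735.

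The methionine cycle enzymes were far more abundant and fell by less. Mat2a, the catalytic subunit of the methionine adenosyltransferase found outside the liver, makes S-adenosylmethionine. It was at 109, 108, 112 and 112 CPM in the knockout libraries, against 152, 176, 159 and 149 CPM in wild type. Every knockout library was below every wild-type library by a wide gap. The means were 110.2 ± 2.10 CPM in knockout and 159 ± 12.0 CPM in wild type (SD, n = 4 each), a fall of 0.53 on the log2 scale (log2 fold change -0.53, SE 0.0583, edgeR adjusted p = 1.98e-06). Of its 31-base words, 19.5% occur in another gene. The antisense gene Particl overlaps 11.3% of its exon sequence, and reads of the pair cannot be told apart without strand, but Particl had 872 counts in all in knockout and 898 in wild type.

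Ahcy, which splits S-adenosylhomocysteine to homocysteine and adenosine, was at 30.8, 29.2, 28.1 and 28.3 CPM in knockout, against 36.0, 37.6, 36.3 and 41.7 CPM in wild type. The groups did not overlap. The means of 29.1 ± 1.21 CPM in knockout and 37.9 ± 2.65 CPM in wild type gave a log2 fold change of -0.38 (SE 0.0711, n = 4 each, edgeR adjusted p = 0.000294). The value is uncertain, because 71.4% of the 31-base words of Ahcy recur elsewhere, mostly in the pseudogene models Gm4737 and Gm9826. Those models held few counts, 27 in knockout and 23 in wild type for Gm4737, and 49 in knockout and 48 in wild type for Gm9826.

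Mtr encodes methionine synthase, which uses methyl folate and vitamin B12 to turn homocysteine back into methionine. Its level was 51.9, 51.4, 52.0 and 53.3 CPM in knockout, against 65.7, 75.0, 64.6 and 65.8 CPM in wild type. The knockout libraries were nearly alike and all lay below the wild-type ones, of which replicate 2 stood high. The means were 52.2 ± 0.817 CPM in knockout and 67.8 ± 4.84 CPM in wild type, with a log2 fold change of -0.38 (SE 0.0629, n = 4 each, edgeR adjusted p = 0.000108).

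The enzymes that use cysteine were divided. Mpst encodes mercaptopyruvate sulfurtransferase, which takes sulfur from a breakdown product of cysteine and is a further source of hydrogen sulfide. It was at 3.49, 2.21, 2.93 and 2.44 CPM in knockout, against 4.48, 6.91, 5.02 and 5.43 CPM in wild type, with no overlap. The means were 2.77 ± 0.568 CPM in knockout and 5.46 ± 1.04 CPM in wild type, a log2 fold change of -0.98 (SE 0.179, n = 4 each, edgeR adjusted p = 0.000248). Cdo1, cysteine dioxygenase, opens the route from cysteine to taurine and sulfate. It was at 4.40, 4.69, 4.26 and 4.54 CPM in knockout, against 6.69, 9.05, 9.58 and 7.69 CPM in wild type. Its knockout libraries differed little, and the lowest wild-type library stood above all of them. The means were 4.47 ± 0.187 CPM in knockout and 8.25 ± 1.31 CPM in wild type, a log2 fold change of -0.89 (SE 0.136, n = 4 each, edgeR adjusted p = 4.90e-05).

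Suox, the mitochondrial sulfite oxidase that ends the route to sulfate, was the exception. It had 9.45, 8.50, 8.80 and 8.62 CPM in knockout, against 8.39, 9.89, 8.84 and 9.18 CPM in wild type. The groups overlapped, with means of 8.84 ± 0.424 CPM in knockout and 9.07 ± 0.631 CPM in wild type. The log2 fold change was -0.04 (SE 0.104, n = 4 each, edgeR adjusted p = 0.773), and its 95% interval ran from -0.26 to 0.18. This interval includes the size of the Gclm change below, so the data allow a change of that size in Suox.

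Gclc and Gclm are the catalytic and modifier subunits of glutamate-cysteine ligase, the first and limiting step of glutathione synthesis. Gclc was at 32.4, 36.6, 33.6 and 37.1 CPM in knockout, against 48.4, 48.2, 41.6 and 43.9 CPM in wild type. Gclm was at 30.2, 30.3, 31.5 and 32.4 CPM in knockout, against 34.2, 39.3, 36.1 and 36.3 CPM in wild type. Neither gene had overlapping groups. Gclc averaged 34.9 ± 2.27 CPM in knockout and 45.5 ± 3.33 CPM in wild type, a log2 fold change of -0.38 (SE 0.0733, n = 4 each, edgeR adjusted p = 0.000387). Gclm averaged 31.1 ± 1.05 CPM in knockout and 36.5 ± 2.09 CPM in wild type, the smallest called change of the set at -0.23 (SE 0.0680, n = 4 each, edgeR adjusted p = 0.00891).

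**Figure D2:**
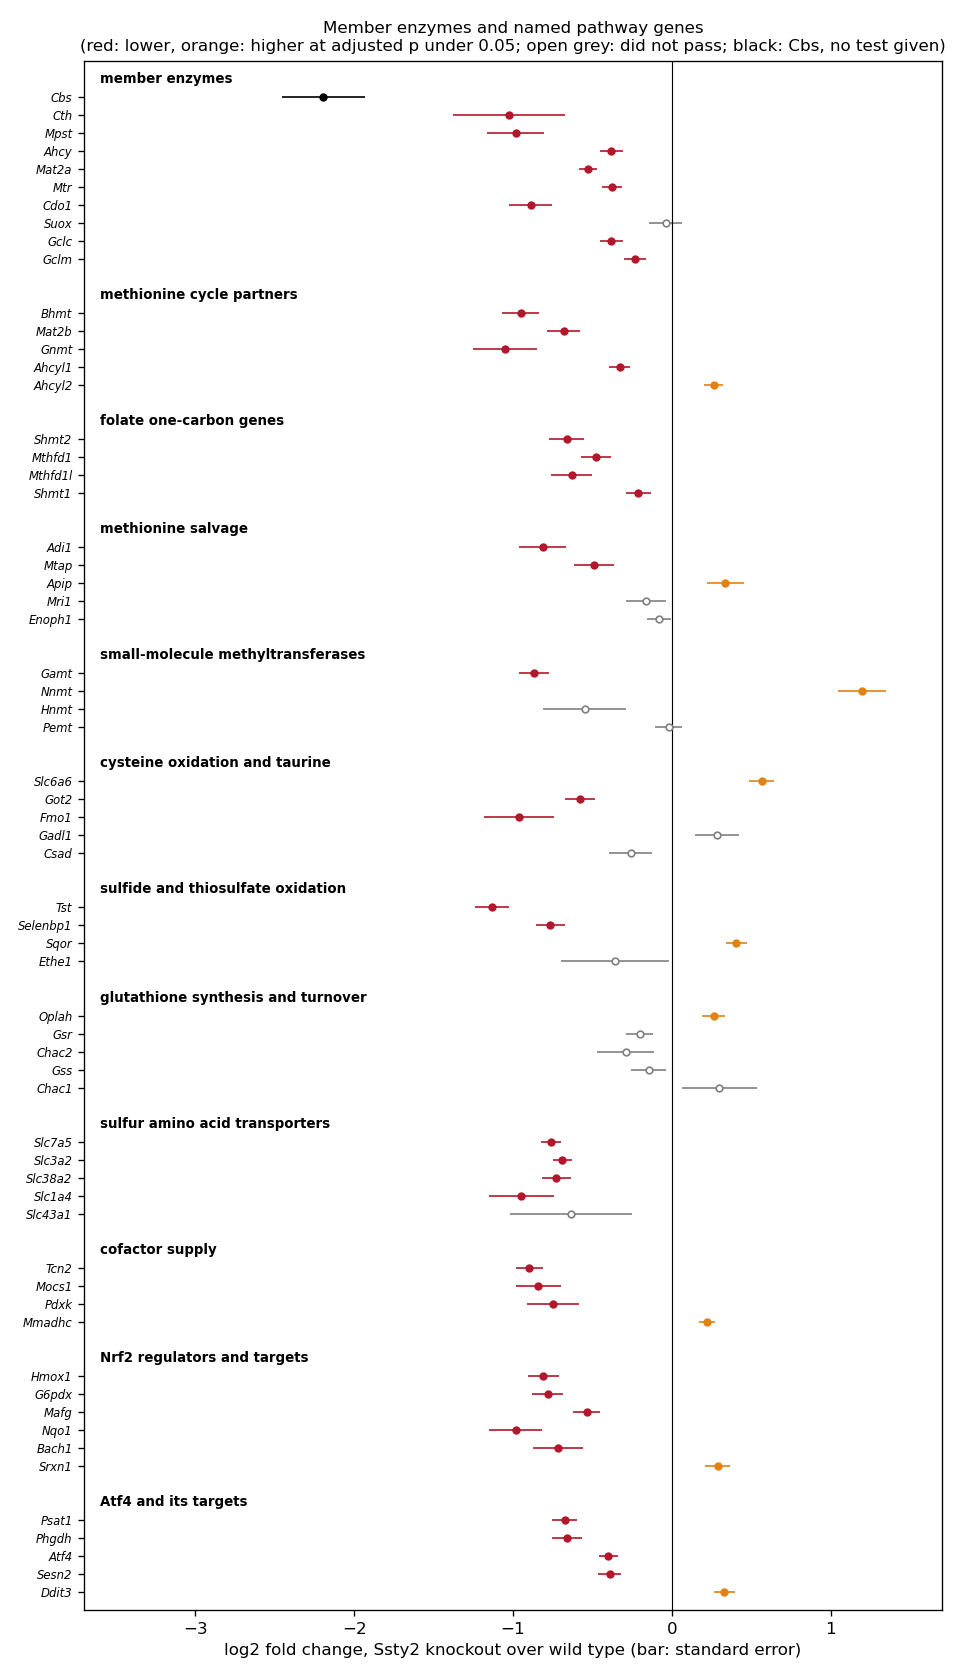
Log2 fold change of knockout over wild type for the 10 enzymes and for pathway genes named in the text, with bars of 1 SE on either side; the vertical line marks no change, and Cbs is drawn in black because it has no test. Cbs stands at -2.20, Cth, Mpst and Cdo1 lie between -1.03 and -0.89, Mat2a, Ahcy, Mtr, Gclc and Gclm lie between -0.53 and -0.23, and the bar of Suox crosses 0.

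Per kilobase of exon, the order of the levels was nearly the same in both groups. In knockout the mean CPM per kilobase was 24.6 for Mat2a, 10.4 for Ahcy, 9.28 for Gclc, 6.12 for Mtr, 4.94 for Gclm, 3.54 for Suox, 2.72 for Cdo1, 1.29 for Mpst, 0.445 for Cth and 0.0937 for Cbs. In wild type it was 35.4 for Mat2a, 13.5 for Ahcy, 12.1 for Gclc, 7.95 for Mtr, 5.80 for Gclm, 5.02 for Cdo1, 3.63 for Suox, 2.55 for Mpst, 0.882 for Cth and 0.441 for Cbs. Cdo1 and Suox were thus in opposite order in the groups. The ranges of neighbours in this order did not overlap in knockout, whereas in wild type those of Ahcy and Gclc overlapped, as did those of Gclm and Cdo1. Cbs, Cth, Mpst and Cdo1, which had the largest differences, were the 4 lowest in knockout, where a fall itself lowers the rank. In wild type the 4 lowest were Cbs, Cth, Mpst and Suox, which was not called, and Cdo1 lay above Suox.

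**Figure D3:**
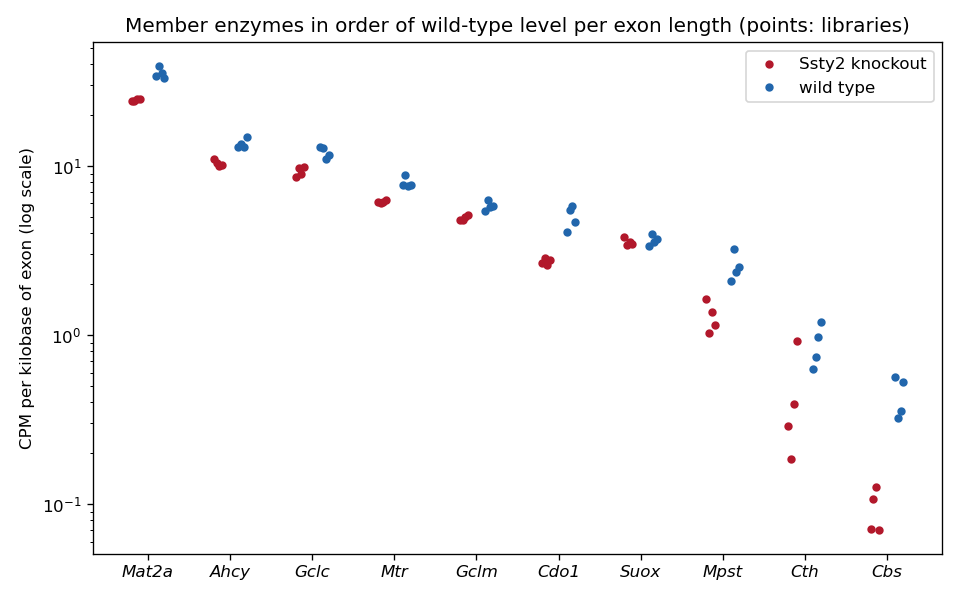
Level per exon length of the 10 enzymes, in TMM-scaled CPM per kilobase on a log axis, for Ssty2 knockout and wild-type libraries; points are libraries. Mat2a is highest, at a mean of 24.6 in knockout and 35.4 in wild type, and Cbs lowest, at 0.0937 in knockout and 0.441 in wild type.

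The ratios of enzymes that work as partners overlapped between the groups. The ratio of Gclc to Gclm, as CPM per kilobase within a library, ran from 1.78 to 2.02 in knockout and from 1.92 to 2.36 in wild type. Mat2a to Mat2b, its regulatory subunit, ran from 7.81 to 9.85 in knockout and from 7.68 to 8.57 in wild type. Mtr to Mtrr, the reductase that keeps methionine synthase active, ran from 3.24 to 3.48 in knockout and from 3.12 to 3.67 in wild type. The ratio of Cbs to Cth ran from 0.0763 to 0.576 in knockout and from 0.362 to 0.899 in wild type, a wide spread in both groups. Its overlap rests on knockout replicate 2, at 0.576, since the other knockout libraries lay below every wild-type one.

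The neighbours of Cbs on chromosome 17 were looked up after its value was seen, as the 5 tested genes on either side in the annotation. Of these 10, 4 were lower in knockout and 0 higher by edgeR and by DESeq2, beside 27.4% of all tested genes lower and 26.2% higher by edgeR. At an unadjusted p under 0.05, 6 were lower and 0 higher, a count for which no matching share of all genes is given. The genes on the one side were not called: Ndufv3 at a log2 fold change of -0.26, AC166172.1 at -0.64, AC166172.4 at 0.16, Pknox1 at 0.04 and AC166575.1 at 0.23. On the other side the next gene, U2af1, a splicing factor, was at -0.32 (edgeR adjusted p = 0.00197). Then came AC090881.2, an antisense transcript, with 4, 0, 0 and 0 counts in the knockout libraries, against 93, 88, 108 and 90 in wild type. Its knockout mean was 1.25% of the wild-type mean, with a log2 fold change of -6.23 (SE 0.442, edgeR adjusted p = 1.97e-08). Cryaa, which encodes a crystallin of the eye lens, had 1, 0, 2 and 3 counts in knockout, against 42, 53, 67 and 54 in wild type. That was 3.33% of the wild-type mean, a log2 fold change of -4.87 (SE 0.393, edgeR adjusted p = 8.22e-08). Both genes were nearly silent in every knockout library and steady in every wild-type one. They lie on opposite strands and share 273 exon bases, so their reads cannot be told apart without strand, whereas Cbs shares no exon base with any of these neighbours. Sik1 was at -0.38 (edgeR adjusted p = 0.00109) and Hsf2bp at -0.14 (edgeR adjusted p = 0.0721). The labels give no strain or breeding for either group, so for Cbs, Cryaa and AC090881.2 a difference between the groups in the sequence of this region and the loss of Ssty2 cannot be told apart.

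**Figure D4:**
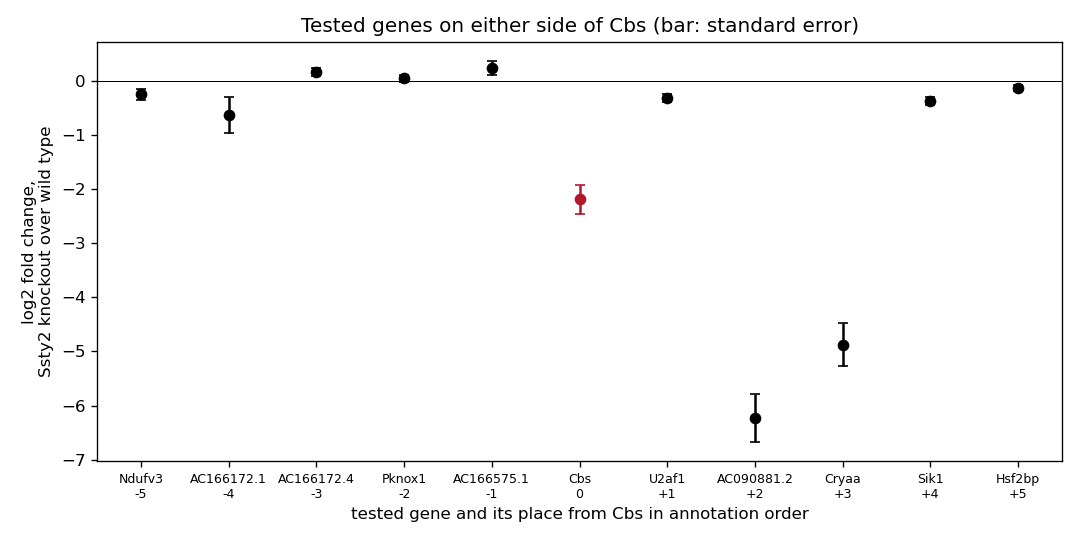
Log2 fold change of knockout over wild type for Cbs and the 5 tested genes on either side of it, in their order along chromosome 17, with bars of 1 SE on either side; the spacing does not show distance. AC090881.2 at -6.23, Cryaa at -4.87 and Cbs at -2.20 stand below the rest, and the other neighbours lie between -0.64 and 0.23.

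For the other members, the median log2 fold change of the 10 neighbours ran from -0.38 for Mpst to 0.35 for Gclc. Gclc, itself lower in knockout, had 5 neighbours called higher and 2 called lower, beside 26.2% and 27.4% of all tested genes. Ahcy, Gclm and Mpst each had 4 neighbours called lower and 2 called higher. No count of neighbours is read as a result. Mpst lies next to Tst, which encodes the related sulfurtransferase rhodanese. Tst was at 17.4, 13.7, 11.8 and 16.1 CPM in knockout, against 36.0, 32.3, 29.4 and 31.3 CPM in wild type. Its groups lay far apart, with means of 14.8 ± 2.49 CPM in knockout and 32.3 ± 2.79 CPM in wild type and a log2 fold change of -1.13 (SE 0.107, n = 4 each, edgeR adjusted p = 3.92e-07).

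The wider pathway was described with 11 lists of 90 other genes, of which 83 were tested. By edgeR, 37 of them (44.6%) fell and 11 (13.3%) rose, against 27.4% and 26.2% of all tested genes, and 35 were not called. The same shares of all tested genes stand beside the counts of each list below. No count of a single list is read as a result. The groups did not overlap for 45 (54.2%), against 46.7% of all genes. The median log2 fold change over the 83 was -0.29, against -0.01 over all tested genes.

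Among 7 tested partners of the methionine cycle, 5 fell and 1 rose, with a median of -0.36. Bhmt, which methylates homocysteine with betaine in place of folate, was at 78.3, 62.3, 92.3 and 71.0 CPM in knockout, against 121, 183, 147 and 136 CPM in wild type. All knockout libraries were below all wild-type ones, and the log2 fold change was -0.95 (SE 0.117, edgeR adjusted p = 6.06e-06). Reads of Bhmt can be shared, since 30.3% of its 31-base words occur elsewhere, chiefly in Gm5096. Gnmt, which spends excess S-adenosylmethionine on glycine, averaged 1.59 ± 0.368 CPM in knockout and 3.29 ± 0.480 CPM in wild type (log2 fold change -1.05, n = 4 each, edgeR adjusted p = 0.000337). Mat2b averaged 13.8 ± 1.60 CPM in knockout and 22.1 ± 2.46 CPM in wild type (log2 fold change -0.68, n = 4 each, edgeR adjusted p = 3.93e-05). Ahcyl1, a relative of Ahcy, changed by -0.33 (edgeR adjusted p = 0.000742). Ahcyl2, another relative, was the gene that rose, by 0.26 (edgeR adjusted p = 0.00171), but under scaling to library totals it was at 0.12 (edgeR adjusted p = 0.0934).

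Folate genes feed the methyl group to Mtr. Of 8 tested, 5 fell and 0 rose by edgeR, also at an unadjusted p under 0.05 and by DESeq2, with a median of -0.44. Shmt2, the mitochondrial enzyme that takes a carbon from serine, was at a log2 fold change of -0.66 (edgeR adjusted p = 0.000118). The folate carbon enzymes Mthfd1 and Mthfd1l were at -0.48 (edgeR adjusted p = 0.000579) and -0.63 (edgeR adjusted p = 0.000592). Shmt1, the cytosolic counterpart of Shmt2, was at -0.21 (edgeR adjusted p = 0.0280), and its call was lost without any 1 of knockout replicates 1, 3 and 4 and wild-type replicates 1 and 2, where the adjusted p reached up to 0.0777.

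In methionine salvage, which recovers methionine from the by-product of polyamine synthesis, 2 of 5 fell and 1 rose. Adi1 was at -0.81 (edgeR adjusted p = 0.000212) and Mtap, which opens the route, at -0.49 (edgeR adjusted p = 0.00413). Apip was at 0.34 (edgeR adjusted p = 0.0202), a call lost under library totals (edgeR adjusted p = 0.157) and without knockout replicate 4 or wild-type replicate 2 or 3. Mri1, at -0.16, and Enoph1, at -0.08, were not called.

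Enzymes that spend S-adenosylmethionine on small molecules moved both ways. Of 5 tested, 2 fell, 1 rose and 2 were not called. Nnmt, which methylates nicotinamide, was at 8.43, 9.25, 12.4 and 9.31 CPM in knockout, against 4.43, 4.29, 5.06 and 3.37 CPM in wild type. The groups lay apart, with means of 9.85 ± 1.75 CPM in knockout and 4.29 ± 0.700 CPM in wild type and the largest rise among the pathway genes, at a log2 fold change of 1.20 (SE 0.152, n = 4 each, edgeR adjusted p = 7.96e-06). Gamt, which makes creatine, averaged 13.9 ± 1.16 CPM in knockout and 25.4 ± 2.78 CPM in wild type (log2 fold change -0.87, n = 4 each, edgeR adjusted p = 1.80e-06). Hnmt, at -0.55, and Pemt, at -0.02, were not called.

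Around Cdo1 and Suox, the list for cysteine oxidation and taurine had 2 of 7 genes lower, 1 higher and 4 not called. The shares over all tested genes were 27.4% lower and 26.2% higher. Slc6a6, the taurine transporter, was at 108, 95.0, 128 and 120 CPM in knockout, against 73.4, 76.3, 82.0 and 72.6 CPM in wild type. Every knockout library was above every wild-type one, with means of 113 ± 14.2 CPM in knockout and 76.1 ± 4.26 CPM in wild type and a log2 fold change of 0.57 (SE 0.0790, n = 4 each, edgeR adjusted p = 2.03e-05). Fmo1, a flavin monooxygenase that can form taurine from hypotaurine, was at -0.96 (edgeR adjusted p = 0.00159) and Got2, an aspartate aminotransferase, at -0.58 (edgeR adjusted p = 7.33e-05), with 30.9% of the words of Got2 shared. Csad, which makes hypotaurine, was at -0.26 and Gadl1 at 0.28, neither called.

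Genes that clear sulfide and thiosulfate were divided between a rise and 2 falls among 4 tested. Sqor, the mitochondrial enzyme that oxidises sulfide, was at 335, 355, 347 and 369 CPM in knockout, against 280.2, 228, 279.8 and 274 CPM in wild type. All knockout libraries were higher, with means of 351 ± 14.2 CPM in knockout and 265 ± 25.2 CPM in wild type and a log2 fold change of 0.41 (SE 0.0644, n = 4 each, edgeR adjusted p = 7.10e-05). Tst, described above beside Mpst, fell, as did Selenbp1, a methanethiol oxidase, at -0.77 (edgeR adjusted p = 4.20e-06). The value of Selenbp1 is uncertain because 61.1% of its words are shared, chiefly with Selenbp2. Ethe1, the next enzyme after Sqor, was at -0.36 and not called.

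Beyond Gclc and Gclm, the list for glutathione synthesis and turnover had 8 of 9 tested genes not called and a median of -0.08. Oplah, the 5-oxoprolinase of the cycle, rose by 0.26 (edgeR adjusted p = 0.00699), a call lost under library totals (edgeR adjusted p = 0.155). By edgeR 0 genes of this list fell, against 1 at an unadjusted p under 0.05 and 0 by DESeq2. Gsr, which reduces oxidised glutathione, was at -0.20 (edgeR adjusted p = 0.0532). Chac2 was at -0.29, Chac1 at 0.30 and Gss, glutathione synthase, at -0.15, and none of these passed.

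Of 9 tested transporters of these amino acids, 4 fell and 0 rose by edgeR, with the same counts at an unadjusted p under 0.05 and by DESeq2 and a median of -0.64. Slc7a5, which imports methionine and other large neutral amino acids, was at 138, 131, 134 and 137 CPM in knockout, against 221, 207, 258 and 229.8 CPM in wild type. The gap between the groups was wide, with a log2 fold change of -0.76 (SE 0.0629, edgeR adjusted p = 9.84e-08). Its partner chain Slc3a2 averaged 106 ± 7.88 CPM in knockout and 171 ± 6.71 CPM in wild type (log2 fold change -0.69, n = 4 each, edgeR adjusted p = 1.62e-07). Slc38a2 was at -0.73 (edgeR adjusted p = 6.27e-06) and Slc1a4 at -0.95 (edgeR adjusted p = 0.00108), both carriers of small neutral amino acids. The other 5 were not called, among them Slc43a1, at -0.64, and Slc7a11, at 0.03 (edgeR adjusted p = 0.871).

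Cofactor genes had 4 of 13 lower, 2 higher and 7 not called, with a median of -0.02. Of all tested genes 27.4% were lower and 26.2% higher. Tcn2, the carrier of vitamin B12, averaged 18.8 ± 1.09 CPM in knockout and 35.1 ± 3.69 CPM in wild type (log2 fold change -0.90, n = 4 each, edgeR adjusted p = 3.93e-07). Mocs1, which starts the molybdenum cofactor that Suox needs, was at -0.84 (edgeR adjusted p = 0.000128). Pdxk, a kinase of the vitamin B6 cofactor of Cbs and Cth, was at -0.75 (edgeR adjusted p = 0.00119), and with 42.3% of its words shared it is uncertain. Mmadhc, which traffics vitamin B12 inside the cell, was at 0.22 (edgeR adjusted p = 0.00199), a call lost under library totals (edgeR adjusted p = 0.195). The other gene that rose was Gphn, which completes the molybdenum cofactor.

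Nrf2, encoded by Nfe2l2, drives Gclc and Gclm, and its list of regulators and targets had 6 of 9 genes lower, 1 higher and a median of -0.54. Nqo1 was at -0.98 (edgeR adjusted p = 0.000131), Hmox1 at -0.81 (edgeR adjusted p = 5.29e-06) and G6pdx, on the X chromosome, at -0.78 (edgeR adjusted p = 5.90e-06, 23.6% of its words shared). Among the regulators, Mafg was at -0.54 (edgeR adjusted p = 6.75e-05) and Bach1, a repressor of such targets, at -0.72 (edgeR adjusted p = 0.00118). Srxn1 was at 0.29 (edgeR adjusted p = 0.00532), a call lost under library totals (edgeR adjusted p = 0.122).

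Atf4 drives genes of amino acid supply, and all 7 tested genes of its list were called, 5 lower and 2 higher, with a median of -0.40. Atf4 itself was at -0.40 (edgeR adjusted p = 5.72e-05). The serine synthesis genes Psat1 and Phgdh were at -0.67 (edgeR adjusted p = 3.49e-06) and -0.66 (edgeR adjusted p = 2.83e-05), with 56.3% of the words of Phgdh shared, and Sesn2 was at -0.39 (edgeR adjusted p = 0.000344). Ddit3, at 0.33 (edgeR adjusted p = 0.000586), and Asns rose. The symbol Ddit3 also belongs to another Ensembl gene that shares 105 exon bases on the same strand. The value is for the lower Ensembl ID, and the other is not reported here.

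Marker genes of testis cell types moved in the same comparison, in which 27.4% of all tested genes were called lower and 26.2% higher. By edgeR all 8 Leydig cell markers and all 12 Sertoli cell markers were lower in knockout, and their summed level ran from 930 to 1035 CPM in knockout and from 1790 to 2070 CPM in wild type for Leydig cells, and from 1507 to 1717 CPM in knockout and from 2235 to 2566 CPM in wild type for Sertoli cells. The smallest p of each list was that of Cyp17a1, a steroid enzyme of Leydig cells, at a log2 fold change of -1.16 (edgeR adjusted p = 1.16e-08), and of Inha, the inhibin subunit of Sertoli cells, at -0.97 (edgeR adjusted p = 2.19e-08). Of 10 spermatogonial markers 7 fell and 1, Gfra1, rose, with sums of 129 to 136 CPM in knockout and 200 to 225 CPM in wild type, and of 10 spermatocyte markers 6 fell and 0 rose, with sums of 931 to 1109 CPM in knockout and 1124 to 1367 CPM in wild type. All 8 round spermatid and all 9 elongating spermatid markers rose, with sums of 2777 to 2878 CPM in knockout and 1745 to 1953 CPM in wild type for round spermatids, and of 20812 to 24037 CPM in knockout and 13274 to 16453 CPM in wild type for elongating spermatids. Markers of myoid cells (5 of 6 lower), macrophages (5 of 7 lower) and endothelium (3 of 6 lower) had 0 that rose. Each count of 0 in these lists, in either direction, was also 0 at an unadjusted p under 0.05 and by DESeq2. The summed level of the 10 enzymes ran from 272 to 282 CPM in knockout and from 361 to 406 CPM in wild type. The part of these marker shifts in the members' differences was not tested.

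**Figure D5:**
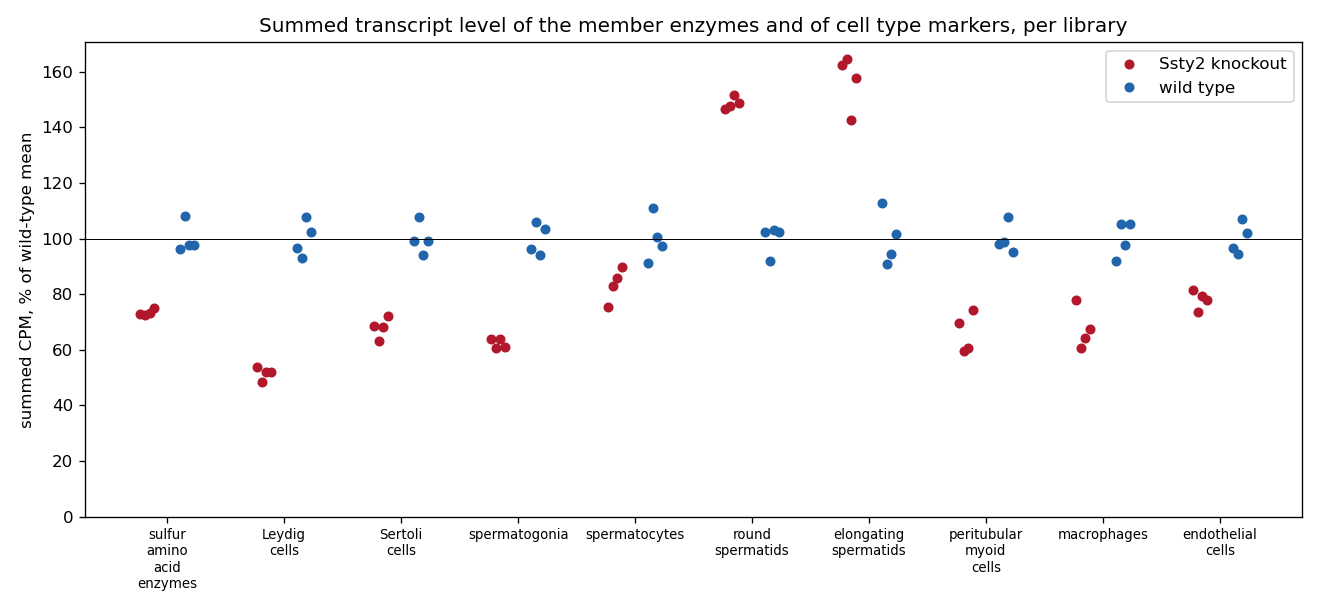
Summed TMM-scaled CPM of each marker list and of the 10 enzymes in every library, as a percentage of the wild-type mean, with knockout points beside wild-type points. The enzymes, at 72.5% to 75.1% in knockout, lie below wild type, and both spermatid lists lie above it. The Leydig, Sertoli, spermatogonial, spermatocyte, myoid, macrophage and endothelial lists all lie below it too. Mat2a is the largest part of the enzyme sum, so the sum says little of Cbs and the other scarce members.

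Markers of other organs in which some members are abundant were measured as well. Of 7 hepatocyte markers 1, Cyp2e1, was tested, and the list summed to 1.75 to 3.22 CPM in knockout and 2.26 to 8.26 CPM in wild type. Among the untested ones Serpina1a went the other way. It had 28, 17, 24 and 8 counts in knockout, against 8, 8, 10 and 4 in wild type. The rest of the untested ones had lower means in knockout, at few counts. Cyp2e1 was at 0.752, 0.704, 1.23 and 0.757 CPM in knockout, against 0.875, 3.63, 6.66 and 1.01 CPM in wild type, so the groups overlapped and wild-type replicates 2 and 3 stood high. Its log2 fold change was -1.84 (edgeR adjusted p = 0.00646), and without wild-type replicate 3 it was -1.11 (edgeR adjusted p = 0.0435, within a range from 2.58e-13 to 0.0435 over the 13 alternatives). Of 7 epididymis markers 1, Spink8, was tested, at -1.54 (edgeR adjusted p = 8.85e-05), and the list summed to 0.757 to 1.40 CPM in knockout and 1.88 to 2.62 CPM in wild type. The untested ones had few counts and differed both ways, with Lcn9 at 11 counts in all in knockout and 4 in wild type. Of 5 kidney markers Kap was at 0 in every library and 3 were tested. Cubn was higher, at 6.52 ± 0.521 CPM in knockout and 4.64 ± 0.630 CPM in wild type. Lrp2 was also higher, at 4.28 ± 0.552 CPM in knockout and 2.99 ± 0.729 CPM in wild type. Slc22a6 was at a log2 fold change of -0.61 and not called. The kidney list summed to 10.9 to 12.3 CPM in knockout and 7.82 to 9.85 CPM in wild type. The part of these organ markers in the members' differences was not tested. The share of counts from mitochondrial genes was 0.727% ± 0.0447 in knockout and 1.20% ± 0.133 in wild type (SD, n = 4 each, two-sided exact permutation p = 0.0286, the smallest this design allows), and its part in the members' differences was not tested.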

How the data were processed

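The authors deposited raw counts as whole numbers, by Ensembl gene ID, in 1 column for each of 4 Ssty2 knockout and 4 wild-type libraries of adult testis, and every column was used. Per the labels' protocols, TRIzol RNA was treated with DNase and made into TruSeq libraries. FastQC and Trimmomatic, STAR, featureCounts and the authors' use of DESeq2 are listed with mm39 per the submitters' processing notes. Their settings, the strand setting and the treatment of reads with several matches are not stated, so reads of near-identical copies may have been split or dropped.

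The filter was filterByExpr (minimum count 10, minimum total 15). Libraries were scaled by TMM and tested with genotype as the only term by edgeR 4.0.16 (quasi-likelihood test) in R 4.3.3, with limma 3.58.1 loaded. P-values were adjusted over all 21952 tested genes by the Benjamini-Hochberg method and called under 0.05. The fit was tested on simulated data. Alternatives were DESeq2 1.42.0 and its size factors, library totals, no filter, a replicate block and leaving out each library. CPM values are scaled by TMM, and standard errors come from the F statistics.

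Symbols (52073 found), exon lengths, gene order and shared 31-base words were taken from GENCODE vM21 on GRCm38 by gene ID. The members and lists were chosen with earlier results of these data known. Of each list all tested genes are named if 5 or fewer, otherwise the 5 with the smallest p and any gene alone in its direction, and up to 3 per marker list. Some genes of these lists are counted but not reported here by name. Mtrr, Gphn, Asns, Slc7a11, Gfra1, Serpina1a, Lcn9, the neighbours and the pseudogenes were named beyond this rule after their values were seen. Nothing says that libraries come from separate animals, so p-values reflect library-to-library spread alone, which may be technical.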

Additional observations from a re-analysis of the deposited data

Results flagged for a closer look

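In 130 groups of 4 libraries, 1 group for each named gene and genotype, the highest or lowest library was compared with the other 3, and 3 groups had a gap to the nearest library beyond Dixon's critical share of the group's range. Chance flags about 1 in 20 groups. Mtr was at 75.0 CPM in wild-type replicate 2, against 64.6 to 65.8 CPM in the other wild-type libraries (gap ratio 0.879). Fmo1 was at 5.10 CPM in wild-type replicate 1, against 6.83 to 6.93 CPM in the others (gap ratio 0.943). Sqor was at 228 CPM in wild-type replicate 2, against 274 to 280.2 CPM in the others (gap ratio 0.873).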

How the results depend on the processing

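Of the counts of calls, the number of other pathway genes higher in knockout moved by more than 1.5 times, to 4 under library totals against 11. Library totals shifted the median log2 fold change of all genes to -0.15, against -0.01 with TMM, and 31.8% of calls were then higher in knockout, against 48.9%. Leaving out each library in turn gave 8 to 9 members lower, 36 to 40 pathway genes lower and 9 to 13 higher, and 5367 to 5975 of all genes lower and 5017 to 5549 higher. For the share of counts from mitochondrial genes, the difference of knockout minus wild type ran from -0.530 to -0.428 percentage points, where 3 against 4 libraries cannot go below a p of 0.0571. Over the members, 128 of 130 fitted values kept their direction and side of the threshold, and the 2 exceptions were Cth without knockout replicate 2 and without wild-type replicate 4. The 130 include 13 values of Cbs, which are no support because Cbs chose the set. The same holds for Cbs within the counts of members lower. Of the named pathway genes, 690 values kept their side of the threshold, 13 lost and 12 gained a call, and none of the called values changed sign. Pemt, which was not called, ran from -0.16 to 0.01 and so did not keep its direction throughout. The 12 gained calls, 6 of them under library totals, belong to Chac2, Csad, Enoph1, Gadl1, Gsr, Gss and Hnmt. The labels do not state whether replicate numbers pair the libraries. Same-numbered libraries correlated at r 0.002 to 0.08, others at -0.066 to 0.041, and 5 of 8 libraries correlated best with their own number. These small values do not settle whether the numbers pair the libraries. A replicate block gave 9 members lower and 0 higher, 38 pathway genes lower and 14 higher, and 6203 of all genes lower and 5915 higher. Depth limits Cbs and Cth, which had under 100 counts in every library.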

Other observations

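Gm9523, a processed pseudogene on chromosome 5 that holds 9.15% of the 31-base words of Mat2a, differed in the direction opposite to Mat2a. It had 20, 14, 22 and 16 counts in the knockout libraries, against 5, 8, 5 and 4 in wild type. The groups did not overlap, and the log2 fold change was 1.87 (SE 0.345, n = 4 each, edgeR adjusted p = 0.000272). It was named after its values were seen, and its counts are small beside those of Mat2a.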
